A study of Homo sapiens with 12 samples.

Results

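The genes that write, copy and remove DNA methylation were followed in HK2 cells, which derive from human proximal tubule and grow as an immortalized line. The 9 genes were taken by symbol from the 58278 genes listed in each library, and all 9 were among the 24342 genes tested. RNA was measured in 12 libraries, which form 6 groups of 2 biological replicates. Ctrl cells were untreated and TN cells received TNF-α at 5 ng/mL for 3 h. The short-chain fatty acids (SCFAs) propionate, at 15 mM, and butyrate, at 3 mM, were given for 24 h, preceding TNF-α in PRTN and BUTN and following it in TNPR and TNBU. No group received an SCFA alone, and whether Ctrl and TN cells spent as long in culture as the SCFA groups is not given in the sources used here. The doses of the 2 SCFAs differed.

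DNA methylation in human cells sits mainly on the cytosine of CpG dinucleotides. DNMT3A and DNMT3B place it on unmethylated DNA and are therefore called de novo methyltransferases. After replication, UHRF1 recognizes DNA methylated on 1 strand and brings DNMT1, the maintenance methyltransferase, to copy the mark. UHRF2 is a paralog of UHRF1. The enzymes TET1, TET2 and TET3 oxidize 5-methylcytosine, with 2-oxoglutarate as a co-substrate, and the glycosylase TDG excises the oxidized base for repair. Butyrate and, more weakly, propionate inhibit histone deacetylases, and methylation of DNA itself was not measured here.

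In GENCODE release 44 on GRCh38 the 9 protein-coding genes lie on 7 chromosomes. DNMT1 (ENSG00000130816.14) spans chr19:10133342-10231286 on the minus strand, and UHRF1 (ENSG00000276043.4) spans chr19:4903080-4962154 on the plus strand. DNMT3A (ENSG00000119772.16) lies on the minus strand at chr2:25227855-25342590, and TET3 (ENSG00000187605.15) lies on the plus strand of the same chromosome at chr2:73984910-74108176. The other genes are on plus strands: DNMT3B (ENSG00000088305.18) at chr20:32762385-32809359, UHRF2 (ENSG00000147854.16) at chr9:6413151-6507054, TET1 (ENSG00000138336.8) at chr10:68560337-68694487, TET2 (ENSG00000168769.13) at chr4:105145875-105279816 and TDG (ENSG00000139372.14) at chr12:103965822-103988874. DNMT1 shares 83 exon bases with S1PR2 on the same strand, but S1PR2 held 119 to 215 counts per library against at least 5564 for DNMT1. On the same strand TET3 shares 390 exon bases with the lncRNA ENSG00000235499, which held 4 to 57 counts against at least 1122 for TET3. TDG shares 168 with the lncRNA ENSG00000288744, which is not among the genes listed in the libraries. How far it shares reads with TDG could therefore not be tested. Near-copies that could share reads, the pseudogenes UHRF2P1, TET1P1 and TDGP1, held at most 2.64 counts in any library. Counts are per gene and do not separate transcripts that start or splice differently.

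DNMT3A, TET1 and TET3 were called lower in all 4 SCFA groups, and their promoter sequences are shown because they differ widely in CpG content. Each line gives, 5′ to 3′ on the gene's strand, the 250 bases before the start of the MANE Select transcript in GRCh38, with every CpG in capitals.
DNMT3A, chr2:25341926-25342175, minus strand: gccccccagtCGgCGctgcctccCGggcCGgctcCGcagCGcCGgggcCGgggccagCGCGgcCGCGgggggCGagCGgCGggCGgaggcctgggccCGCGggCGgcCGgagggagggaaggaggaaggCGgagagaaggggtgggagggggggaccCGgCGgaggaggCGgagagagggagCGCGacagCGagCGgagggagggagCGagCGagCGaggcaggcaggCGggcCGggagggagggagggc
TET1, chr10:68560087-68560336, plus strand: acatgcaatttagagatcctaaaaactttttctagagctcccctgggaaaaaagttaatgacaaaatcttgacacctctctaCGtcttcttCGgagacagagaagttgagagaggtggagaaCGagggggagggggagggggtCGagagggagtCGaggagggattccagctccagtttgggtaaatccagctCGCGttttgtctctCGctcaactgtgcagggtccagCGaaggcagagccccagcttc
TET3, chr2:73984660-73984909, plus strand: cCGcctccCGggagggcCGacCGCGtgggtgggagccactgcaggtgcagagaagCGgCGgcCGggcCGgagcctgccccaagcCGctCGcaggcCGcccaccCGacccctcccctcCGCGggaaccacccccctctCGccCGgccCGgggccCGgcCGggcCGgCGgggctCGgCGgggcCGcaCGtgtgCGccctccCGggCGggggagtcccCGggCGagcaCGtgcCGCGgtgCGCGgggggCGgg

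In windows of 300 bases (250 before and 50 after the start), DNMT3A held 46 CpGs and TET3 held 45, more than 95.5% and 94.6% of the 19060 promoters read in the same way. TET1, the gene with the fewest of the 9, held 10 against a median of 23 over all promoters. Of the other genes, UHRF1 held 36, TET2 held 35, DNMT1 held 30, UHRF2 held 26 and TDG held 22. The genes that fell in all SCFA groups thus include the most CpG-rich window of the 9 as well as the poorest. The GC box GGGCGG, searched on both strands, occurred 3 times in DNMT3A, was absent from the windows of DNMT1, TET1 and TDG, and is held by 62.2% of all promoters. An E2F box, TTTCGCGC, TTTGGCGC or TTTCCCGC on either strand, occurred once in DNMT1 and once in UHRF1 and is held by 3.69% of promoters. The E-box CACGTG occurred in TET3 and TDG and is held by 8.80% of promoters. No window held the TATA box TATAAA, which 9.52% of promoters hold. These matches describe letters and not binding.

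The libraries held 27269986 to 33851130 expected counts, so that 3 counts correspond to at most 0.112 CPM. CPM is the count scaled to an equal library size, here with TMM factors (0.913 to 0.957 in Ctrl and TN, and 1.02 to 1.06 in the SCFA groups). Mitochondrial genes took 5.86% to 9.46% of the counts. The tubular and epithelial markers PAX8, GGT1, EPCAM, KRT8 and KRT18 were present in every library, while HNF4A, LRP2 and MME, which mark differentiated proximal tubule, were at 0 in Ctrl and TN. The replicates of TNPR and TNBU stood farther apart than those of the other groups, with a median absolute log2 difference over the 9 genes of 0.149 and 0.228, against 0.0234 to 0.0741 elsewhere. TNPR replicate 1 was above replicate 2 for 8 of the 9 genes, and TNBU replicate 1 was above replicate 2 for 9 of 9. In bulk RNA, a change in the number of cells of a kind and a change in RNA per cell cannot be told apart.

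Set beside each other per kilobase of merged exons, UHRF1 had the highest level in every group, from 21.0 CPM per kb in TNPR to 26 in TN, and TET1 the lowest, from 0.0995 in TNPR to 0.399 in Ctrl. In Ctrl the order was UHRF1 (25.0 ± 0.568 CPM per kb, SD, n = 2), DNMT1 (15.7 ± 0.382), TDG (14.5 ± 0.289), TET3 (6.68 ± 1.2), UHRF2 (5.01 ± 0.222), DNMT3A (4.31 ± 0.123), DNMT3B (3.72 ± 0.00539), TET2 (2.15 ± 0.0987) and TET1 (0.399 ± 0.0162). TET3 and UHRF2 were neighbours in that order whose difference was near the spread of TET3. In PRTN, DNMT3B had moved from the 7th place to the 4th, at 7.0 ± 0.0724 CPM per kb, and it held the 4th place in all SCFA groups. DNMT3A stood 7th or 8th there, beside TET2, and the levels of both lay within each other's spread in TNPR and TNBU. Among the TET enzymes, TET3 gave 67.0% to 76.3% of the summed level per kb and TET1 1.74% to 4.94%. These lengths depend on the annotation, and with the longest transcript in place of merged exons DNMT1 rather than UHRF1 ranked first in each group.

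**Figure D1:**
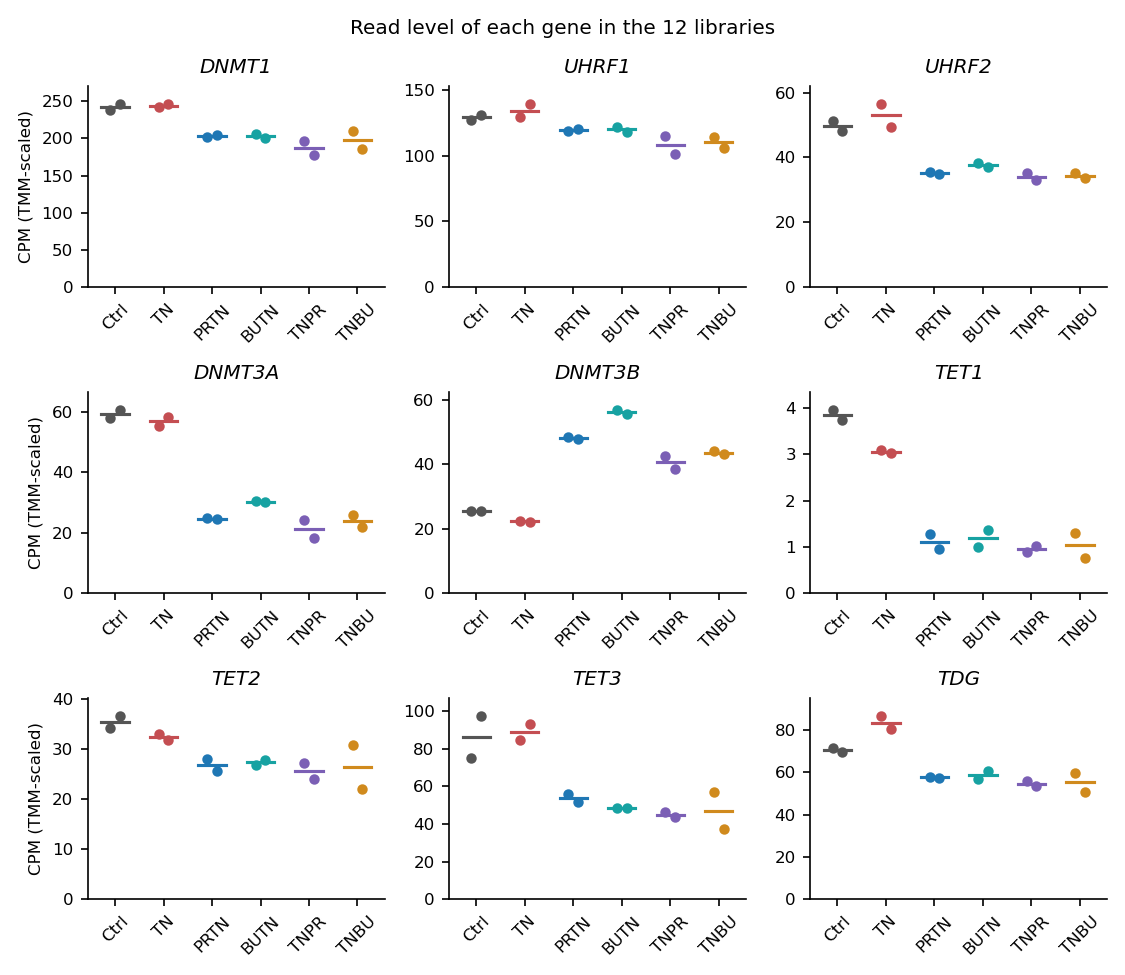
Level of each of the 9 genes in CPM (counts scaled to equal library size with TMM factors, linear axis from 0) by group, with 1 point per library and a line at the mean of the 2 replicates. Ctrl and TN lie close together for most genes. In the 8 SCFA libraries DNMT3B lies higher and every other gene lower than in the 4 others, with no overlap. The gap is narrow for UHRF1 (at most 122 against at least 127 CPM) and TET2 (30.9 against 31.8). How many of all genes separate in this way was not counted, so the separation is not read as particular to these 9. By call, another measure, 18.4% of all tested genes were higher in all 4 SCFA groups against TN and 11.9% lower.

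TNF-α alone left the 9 genes with no call. A call required more than a 1.5-fold change together with an adjusted p below 0.05 (limma-voom, Benjamini-Hochberg over all tested genes). In TN vs Ctrl, 0 of the 9 genes were called, where 1.30% of all tested genes were called in either direction. By limma-voom, 2 of the 9 had an unadjusted p under 0.05, as did 4140 of all 24342 tested genes. The quasi-likelihood test of edgeR and DESeq2 also called 0 of the 9. TDG stood at 71.8 and 69.8 CPM in Ctrl and 86.6 and 80.4 in TN, a log2 difference of 0.24 (SE 0.0760, adjusted p = 0.121 by limma-voom). DNMT3B stood at 25.6 CPM in both Ctrl libraries and at 22.5 and 21.9 in TN, a log2 difference of -0.20 (SE 0.0763, adjusted p = 0.186 by limma-voom). In both genes, and also in TET1 and TET2, the libraries of Ctrl and TN did not overlap, and the differences did not pass the adjusted test. The share of all genes that separate like this between Ctrl and TN was not counted. The separation of 2 libraries from 2 is therefore not read as an effect of TNF-α. Apart from TDG and DNMT3B, the 95% interval of each gene contained 0. The widest, that of TET1, ran from -0.74 to 0.09.

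In the SCFA groups, the 2 de novo methyltransferases moved in opposite directions. DNMT3A had 58.2 and 60.6 CPM in the Ctrl libraries and 55.5 and 58.4 CPM in the TN libraries. With propionate it had 24.8 and 24.4 CPM (PRTN) or 24.2 and 18.3 CPM (TNPR), and with butyrate 30.4 and 30.1 CPM (BUTN) or 25.8 and 21.9 CPM (TNBU). All 8 SCFA libraries were below all 4 others. Against TN it fell by 1.21 on the log2 scale in PRTN (SE 0.107, adjusted p = 8.91e-07 by limma-voom), 2.32-fold lower, and it was 2.70-fold lower in TNPR, 1.88-fold in BUTN and 2.40-fold in TNBU.

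DNMT3B had 25.6 and 25.6 CPM in the Ctrl libraries and 22.5 and 21.9 CPM in the TN libraries. With propionate it had 48.5 and 47.8 CPM (PRTN) or 42.6 and 38.5 CPM (TNPR), and with butyrate 56.7 and 55.4 CPM (BUTN) or 44 and 43 CPM (TNBU). The lowest SCFA library stood above the highest library without SCFA. Against TN it rose by 1.11 in PRTN (SE 0.0712, adjusted p = 5.86e-08 by limma-voom), 2.16-fold, and it was 1.82-fold higher in TNPR, 2.52-fold in BUTN and 1.96-fold in TNBU. DNMT3B was the only 1 of the 9 genes called higher. Of all tested genes, 18.4% were called higher in all 4 SCFA groups against TN and 11.9% lower.

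The reads of DNMT3B per read of DNMT3A were 0.439 and 0.423 in the Ctrl libraries and 0.406 and 0.375 in TN. With propionate they were 1.96 and 1.96 (PRTN) or 1.76 and 2.10 (TNPR), and with butyrate 1.86 and 1.84 (BUTN) or 1.70 and 1.97 (TNBU). The ratio does not depend on how libraries are scaled. Per kilobase of merged exons it was 0.752 to 0.880 without SCFA and 3.41 to 4.22 with it, so that DNMT3A was the higher of the pair in all 4 libraries without SCFA and DNMT3B in all 8 with it. The shares follow from the calls above and are given with no test of their own.

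**Figure D2:**
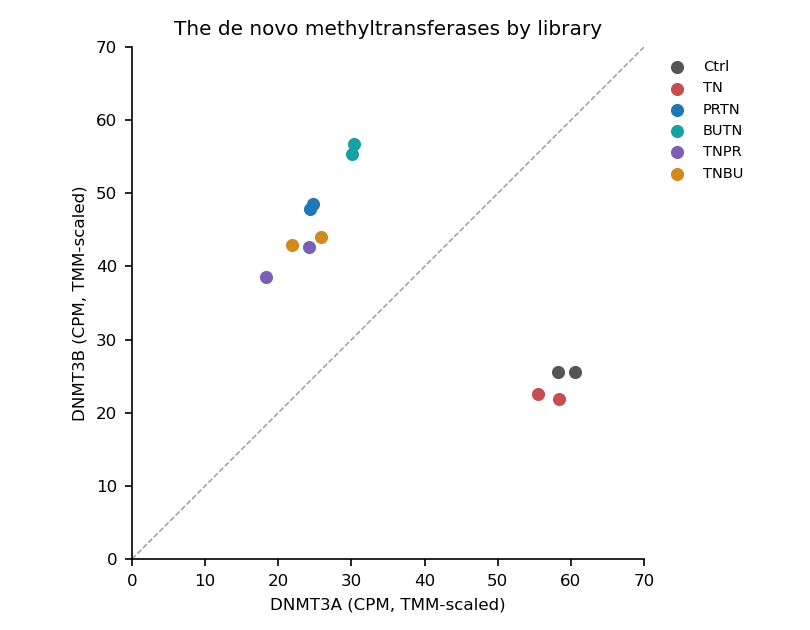
DNMT3B against DNMT3A in CPM (TMM-scaled), 1 point per library, coloured by group, with a dashed line where both are equal. The Ctrl and TN libraries lie below the line, with DNMT3A between 55.5 and 60.6 CPM, and the 8 SCFA libraries lie above it, with DNMT3A between 18.3 and 30.4.

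The maintenance genes DNMT1 and UHRF1 differed little, and UHRF2, the paralog of UHRF1, fell more. DNMT1 had 238 and 246 CPM in the Ctrl libraries and 242 and 246 CPM in the TN libraries. With propionate it had 202 and 205 CPM (PRTN) or 197 and 178 CPM (TNPR), and with butyrate 206 and 201 CPM (BUTN) or 210 and 186 CPM (TNBU). Every SCFA library was below every other, but by less than the 1.5-fold that a call required. Against TN the log2 differences by limma-voom were -0.26 in PRTN (SE 0.0664, adjusted p = 0.00457), -0.38 in TNPR, -0.26 in BUTN and -0.31 in TNBU. UHRF1 had 127 and 131 CPM in Ctrl, 129 and 139 in TN, and 101 to 122 in the 8 SCFA libraries, with log2 differences against TN of -0.15 to -0.31. By limma-voom its adjusted p against TN was 0.0756 in PRTN, 0.00268 in TNPR, 0.0899 in BUTN and 0.00511 in TNBU. UHRF2 had 51.3 and 48.2 CPM in Ctrl, 56.4 and 49.5 in TN, and 33.0 to 38.2 in the SCFA libraries, with no overlap. It was called lower against TN in PRTN (log2 difference -0.59, SE 0.0762), TNPR (-0.63) and TNBU (-0.62), and stood at -0.49 in BUTN with an adjusted p of 0.000132 by limma-voom.

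The size of these small differences depends on the scaling. With library size alone in place of TMM factors, the median of all genes against TN moved by 0.153 to 0.196 on the log2 scale. On that scale DNMT1 was 0.11 to 0.21 below TN, UHRF1 was at 0.00 in BUTN, and UHRF2 stood at -0.34 to -0.46 with no call in any SCFA group, while TDG stood at -0.35 to -0.44 with none. The split of all calls moved too, from 58.9% higher to 68.5% higher in PRTN vs TN. DNMT3A, DNMT3B and TET1 kept their calls against TN on that scale.

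Among the erasers, TET1 and TET3 fell in all SCFA groups. TET1 was read rarely, with 115 and 104 counts in the Ctrl libraries and 83 and 84 in the TN libraries. The counts with propionate were 44 and 31 (PRTN) or 30 and 32 (TNPR), and those with butyrate were 32 and 47 (BUTN) or 37 and 23 (TNBU). In CPM it stood at 3.95 and 3.73 in Ctrl and 3.09 and 3.02 in TN, and between 0.763 and 1.36 in the SCFA libraries. Its log2 difference from TN was -1.46 in PRTN (SE 0.245, adjusted p = 0.000235 by limma-voom), -1.67 in TNPR, -1.37 in BUTN and -1.61 in TNBU. Its standard errors, from 0.242 to 0.262, were the widest of the 9 genes. The study listed TET1 among chromatin remodelling genes that it picked from these libraries, so its fall is not independent of that choice.

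TET3 had 75.4 and 97.4 CPM in the Ctrl libraries and 84.7 and 93.4 CPM in the TN libraries. With propionate it had 56.2 and 51.5 CPM (PRTN) or 46.3 and 43.6 CPM (TNPR), and with butyrate 48.6 and 48.3 CPM (BUTN) or 57.0 and 37.2 CPM (TNBU). The groups with and without SCFA did not overlap, although the Ctrl pair and the TNBU pair were each wide. Its log2 difference from TN was -0.73 in PRTN (SE 0.155, adjusted p = 0.00148 by limma-voom), -0.99 in TNPR, -0.88 in BUTN and -0.95 in TNBU. With library size alone the value in PRTN was -0.57 and lost its call. The fit shares 1 spread among the 6 groups, so the SE in TNBU (0.159) was near that in BUTN (0.157) despite the wide pair.

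TET2 had 34.3 and 36.6 CPM in Ctrl, 33.1 and 31.8 in TN, and 22 to 30.9 in the SCFA libraries. It was not called in any SCFA group against TN, where its log2 differences were -0.25 to -0.34 and its adjusted p by limma-voom was 0.0814 in PRTN, 0.0341 in TNPR, 0.112 in BUTN and 0.0471 in TNBU. Without TNBU replicate 1, the higher of its pair, the difference in TNBU was -0.59 and was called. TDG had 50.9 to 60.7 CPM in the SCFA libraries, below Ctrl (71.8 and 69.8) and TN (86.6 and 80.4). It was called lower in TNPR (log2 difference -0.61, SE 0.0768) and TNBU (-0.60), and was at -0.53 in PRTN and -0.50 in BUTN, with adjusted p of 6.46e-05 and 0.000114 by limma-voom. TN was the group with the most TDG, and against Ctrl the SCFA groups differed in TDG by only -0.27 to -0.37.

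**Figure D3:**
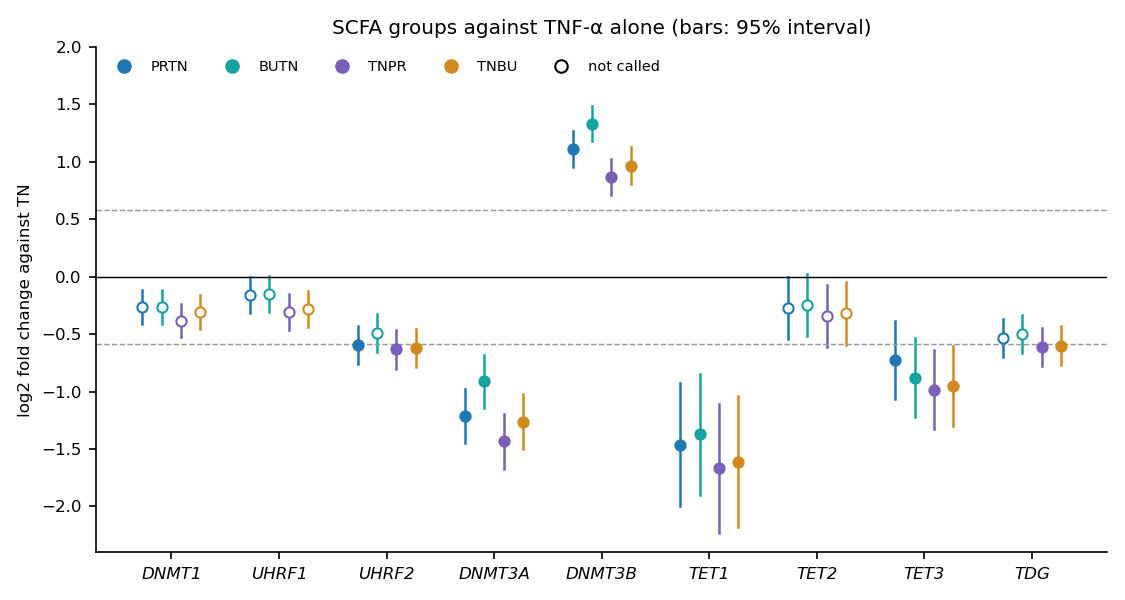
Log2 fold change of each gene in each SCFA group against TN, with 95% intervals from limma-voom; dashed lines mark 1.5-fold, and open points were not called. DNMT3B lies above the upper line in all 4 groups, DNMT3A, TET1 and TET3 lie below the lower line, and UHRF2 and TDG straddle it.

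By count, 1 of the 9 genes was called higher and 4 lower in PRTN vs TN, where 23.9% of all tested genes were called higher and 16.7% lower. In BUTN vs TN the counts were 1 higher and 3 lower, with 23.1% and 14.8% of all genes. In TNPR vs TN they were 1 and 5, with 24.9% and 16.9%, and in TNBU vs TN 1 and 5, with 25.0% and 16.5%. The median log2 difference of the 9 genes against TN was -0.49 to -0.61, beside 0.08 to 0.12 for all genes tested. A share of 9 genes rests on few members. Leaving out TN replicate 1 lost the calls of UHRF2 in all 3 groups where it had one and those of TDG in both, with values of -0.53 to -0.58. Leaving out TN replicate 2 had the opposite effect, since TDG was then called in PRTN (-0.62) and BUTN (-0.59) and UHRF2 in BUTN (-0.62). Without TNBU replicate 2, TDG in TNBU was at -0.51 and lost its call.

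Against Ctrl, DNMT3B was called higher and DNMT3A, TET1 and TET3 lower in each of the 4 SCFA groups, and no other gene of the 9 was called with all 12 libraries. The background was 22.6% higher and 16.9% lower in PRTN, 23.6% and 16.8% in TNPR, 22.0% and 14.9% in BUTN, and 23.6% and 16.5% in TNBU. DNMT3B was 1.88-fold, 1.58-fold, 2.19-fold and 1.70-fold higher in that order of groups, and DNMT3A was 2.42-fold, 2.81-fold, 1.96-fold and 2.50-fold lower. Without TNPR replicate 1 the rise of DNMT3B in TNPR was 0.56 on the log2 scale and lost its call. TET3 in PRTN lost its call without Ctrl replicate 2, at -0.49, and with library size alone, at -0.57. Other calls were gained when 1 library was left out. Without TNPR replicate 1, UHRF2 (-0.62) and TET2 (-0.59) were called lower in TNPR, and without TNBU replicate 1 UHRF2 (-0.59) and TET2 (-0.71) were called lower in TNBU. UHRF2 was also called in TNPR without Ctrl replicate 2, at -0.59. TN and Ctrl are compared with the same SCFA libraries, so both sets of values share those libraries.

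Propionate and butyrate, compared at the doses and hours used, gave 0 called genes of the 9 at either time. The doses were 15 mM and 3 mM, so the contrast is between these treatments and not between equal doses. In PRTN vs BUTN, where 0.168% of all tested genes were called, DNMT3A was lower by 0.30 on the log2 scale (95% interval -0.54 to -0.06, adjusted p = 0.242 by limma-voom) and DNMT3B by 0.22 (-0.36 to -0.08, adjusted p = 0.138). These 2 were the genes of the 9 with an unadjusted p under 0.05 by limma-voom, as had 3418 of all 24342 tested genes. In each of the 2 genes, both PRTN libraries lay below both BUTN libraries. In TNPR vs TNBU, where 0.00822% of all genes were called, the 9 differences ran from -0.17 to -0.01, and 0 had an unadjusted p under 0.05. The interval of DNMT3B there was -0.25 to 0.04 and that of TET1 was -0.73 to 0.61, which leaves room for a difference in TET1 of over 1.5-fold either way. By edgeR's quasi-likelihood test and by DESeq2, 0 of the 9 were called in both contrasts.

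SCFA given after TNF-α was compared with the same SCFA given before it. By the scheme, TNF-α came last in PRTN and BUTN, and SCFA came last in TNPR and TNBU. The order of dosing therefore goes with the time since TNF-α, and order and time cannot be told apart. TNPR and TNBU differ from TN in that time too. In TNPR vs PRTN, 0 of the 9 genes were called, where 0.160% of all tested genes were. By limma-voom 1 of the 9, DNMT3B, had an unadjusted p under 0.05, as had 2729 of all 24342 tested genes. In TNBU vs BUTN, 0 of the 9 were called, where 0.267% of all genes were. DNMT3B in TNBU, at 44 and 43 CPM, was below BUTN, at 56.7 and 55.4, by 0.37 on the log2 scale (SE 0.0641, adjusted p = 0.0254 by limma-voom), a difference of 1.29-fold and under the 1.5-fold of a call. DNMT3A was lower by 0.35 in the same contrast with an adjusted p of 0.189 by limma-voom. The difference between both time effects called 0 of the 9, with an adjusted p of 1 for each, and 0% of all genes; 0 of the 9 had an unadjusted p under 0.05 there, and edgeR's quasi-likelihood test and DESeq2 called 0.

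Across the 12 libraries, DNMT3B ran opposite to the other 8 genes, with Pearson's r of log2 CPM from -0.862 with UHRF2 to -0.586 with UHRF1, and -0.815 with DNMT3A. The other 8 correlated with each other at 0.768 to 0.969. These values describe 12 points that fall into libraries with and without SCFA, so they mostly restate that split. The genes most like DNMT3A were PAPLN (r = 0.998), ARHGEF16 (0.997) and ZC3H7B (0.996), and those most like DNMT3B were SSC4D (0.989), S100A4 (0.989) and CYTL1 (0.988). SURF2 (0.990) was most like DNMT1, LSM14A (0.988) most like TET1, USF3 (0.989) most like TET3 and EIF3J (0.995) most like TDG. Of 10121 genes compared, 2763 had an r over 0.9 with DNMT3A, but 206 with UHRF1 and 265 with TET2.

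Other genes of the methylation machinery were read from lists by role, beside 23.1% to 25.0% of all tested genes called higher and 14.8% to 16.9% called lower against TN. Of the 8 genes listed as readers of methylated CpG, all were tested. Against TN, 0 were called higher, and 4 were called lower in PRTN, BUTN and TNBU and 5 in TNPR. The median log2 difference was -0.59 to -0.67. Whether each listed protein, MBD3 included, binds methylated CpG was not tested. The largest difference was that of ZBTB38, a zinc finger protein that binds methylated DNA and represses, which stood at 344 to 352 CPM in TN and 65.6 to 67.5 in PRTN and fell by 2.39 on the log2 scale (SE 0.107, adjusted p = 3.47e-09 by limma-voom). ZBTB33, also called Kaiso, fell by 1.24 and MBD3, a subunit of the NuRD complex, by 0.93. MBD1, MBD2 and MBD4 were called in none of the 4 groups.

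Of the 13 partners of the enzymes 12 were tested, and 3 to 4 were called higher and 2 to 3 lower against TN in the 4 groups, with medians of -0.25 to -0.30. CDCA7L, a homologue of the CDCA7 subunit of a chromatin remodeller, went from 52.2 to 52.6 CPM in TN to 158 to 163 in PRTN, a rise of 1.62 (SE 0.0682). CXXC5, a CpG-binding zinc finger protein, fell by 0.85, and OGT, the O-GlcNAc transferase that binds TET proteins, was at -0.52 with no call in PRTN. OGT stood at 269 to 272 CPM in TN and 187 to 190 in PRTN. It was lower than in TN in the other SCFA groups too (BUTN 175 to 181, TNPR 200 to 205, TNBU 179 to 182). DNMT3L, the cofactor without catalytic activity, was at 0 counts in Ctrl and TN, and at 9 and 9.12 counts in BUTN, and reached at most 15.07 counts in PRTN, whose other library had 0. The remodeller HELLS, the catalytic partner of CDCA7, was not called in any of the 4 groups.

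Base excision repair, which completes demethylation after TDG, held genes called in either direction. Of 15 genes, 3 were called higher and 4 lower in PRTN, 5 and 5 in TNPR, 1 and 4 in BUTN, and 3 and 5 in TNBU, with medians of -0.04 to -0.28. Of all tested genes, 23.9% were called higher and 16.7% lower in PRTN, and 24.9% and 16.9% in TNPR. In BUTN the shares were 23.1% and 14.8%, and in TNBU 25.0% and 16.5%. With 15 genes and no test of the list, the counts are not read as setting it apart. The abasic endonuclease APEX1 fell by 1.04 in PRTN (SE 0.0614, adjusted p = 3.02e-08 by limma-voom), and DNA ligase LIG3 fell by 1.5. The genes called higher in PRTN were the glycosylase NTHL1 (1.37), GADD45B (0.82) and the scaffold XRCC1 (0.63). The uracil glycosylases SMUG1 and UNG were not called.

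For the supply of methyl groups, 13 genes were tested, and 4 to 6 were called higher and 2 lower against TN, with medians of -0.03 to -0.14. The 2 called lower are a share near the 14.8% to 16.9% of all tested genes. NNMT, which spends S-adenosylmethionine on nicotinamide, stood at 116 to 120 CPM in TN and 17.9 to 19.9 in PRTN and fell by 2.64 (SE 0.146, adjusted p = 1.76e-08 by limma-voom). AHCYL1 rose by 0.67 in PRTN. The synthase MAT2A and the hydrolase AHCY, the main enzymes of making and recycling S-adenosylmethionine in most cells, were called in none of the 4 groups.

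Of 9 genes that make or use 2-oxoglutarate or its competitors, 1 was called higher and 1 to 2 lower. OGDH, the 2-oxoglutarate dehydrogenase, fell by 0.83 in PRTN (SE 0.0536) and was called lower in all 4 groups. FH, the fumarase, was at 0.58 with no call. The median of this list against TN was 0.08 to 0.28.

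DNMT1 and UHRF1 are expressed with DNA replication, so 22 replication genes were read beside them. Against TN, 1 to 3 were called higher and 3 to 4 lower, 15 to 18 were not called, and the median was -0.01 to -0.06. TYMS fell by 1.25 in PRTN (SE 0.0724), MCM7 fell by 0.87 and RRM2 rose by 1.1. MKI67, a marker of cycling cells named after its values were seen, fell by 0.65 to 0.88 in the 4 groups. The part of the cell cycle in the differences of DNMT1 and UHRF1 was not tested.

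Of 15 germline genes that promoter methylation is known to keep silent, 6 were tested and 9 had at most 3 counts in any library. TEX19 stood at 3.48 to 4.58 CPM in TN, 11.5 to 12.2 in PRTN and 16 to 19.4 in BUTN, and was called higher in all 4 groups (log2 difference in PRTN 1.57, SE 0.169). STK31 was called higher in all 4 as well but held only 1 to 29 counts per library. SYCE1 was at -1.16 in PRTN with no call (adjusted p = 0.129 by limma-voom). The 6 that passed the filter are not all members of the list, and their median is therefore not given.

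**Figure D4:**
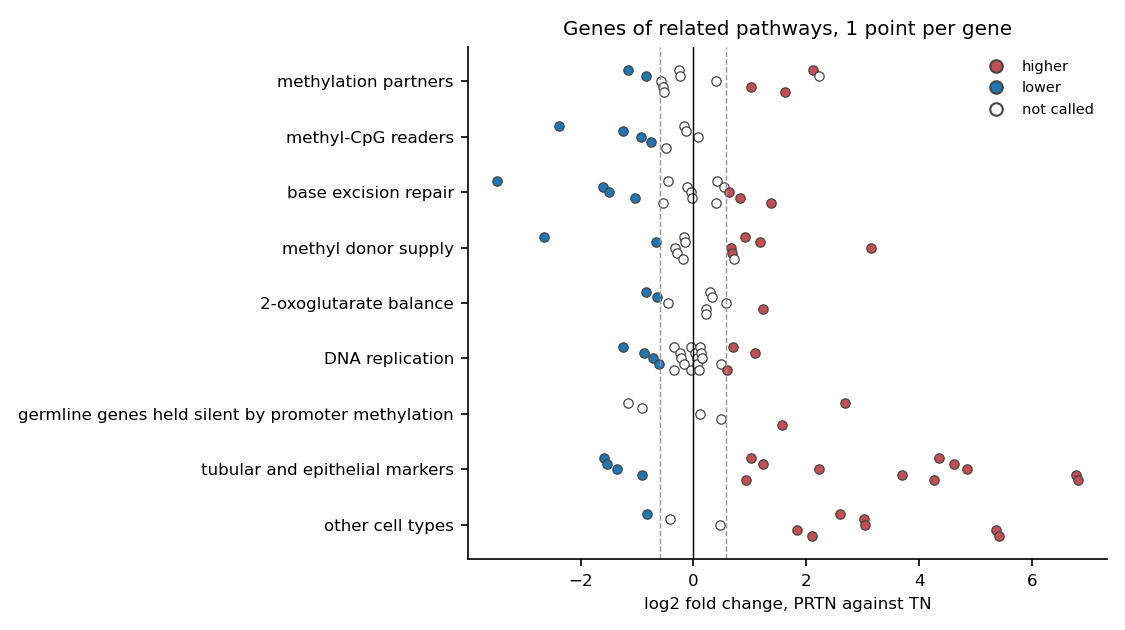
Log2 fold change in PRTN against TN of each tested gene of the lists by role, 1 point per gene; red points were called higher, blue lower, and open points were not called, with dashed lines at 1.5-fold. The genes listed as methyl-CpG readers lie at or below 0.09, and the DNA replication genes gather around 0. Markers of other cell types and of tubule extend far to the right.

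Marker genes moved with the SCFA groups too. Of 15 tubular and epithelial markers, 11 were called higher in PRTN, BUTN and TNBU against TN and 10 in TNPR, with 4 lower in each. Their median log2 difference was 2.23 to 2.86, or 1.22 to 2.11 with the 4 markers at 0 in TN set to 3 counts there. KRT19 rose by 4.36 in PRTN, while PAX8 fell by 1.35 and GGT1 by 1.59. Of the 12 markers of other cell types 10 were tested, and 7 to 8 were called higher and 1, DCN, lower, with medians of 2.16 to 2.35, or 1.79 to 2.14 with the 3 at 0 in TN set to 3 counts there. The summed level of 4 fibroblast markers was 44.3 to 53.4 CPM in Ctrl and TN and 153 to 211 in the SCFA groups, most of it COL1A1, which rose by 2.11 in PRTN, while PDGFRA was at 0 in TN. The 3 endothelial markers summed to 0.143 to 0.287 CPM without SCFA and 2.18 to 3.61 with it, and the 5 leukocyte markers to 30.3 to 36.3 and 26 to 52, with CD3E at 0 in Ctrl and TN and PTPRC at 0 in TN. CD14 rose by 1.84 in PRTN, although the sum of the 5 leukocyte markers there, 26 to 27.1 CPM, was below Ctrl and TN. That sum was 40.2 to 44.1 in BUTN, 46.5 to 52 in TNBU and 29.9 to 35.1 in TNPR. The part of these marker genes in the results on the methylation genes was not tested.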

How the data were processed

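RNA of HK2 cells in 12 libraries (6 groups of 2) was analysed. The authors deposited RSEM expected counts for each gene, made from stranded mRNA libraries with STAR 2.6.1a on GRCh38 and RSEM on GENCODE 26, without normalization or pooling. The RSEM version and strand setting are not given in the sources used here. Groups follow the label of each library; the general treatment text names other compounds and was not used. Paired same-numbered libraries were not assumed.

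Genes with a geometric mean count under 1 (1 added, then subtracted) were removed, 33936 in all. limma 3.58.1 (voom, R 4.3.3) with TMM factors from edgeR 4.0.16 fitted 6 group means to unrounded counts of all 12 libraries, with Benjamini-Hochberg adjustment over 24342 genes. Residual and prior degrees of freedom were 6 and 6.12. For each gene 1 estimate of the spread was shared by the 6 groups, although the replicates of TNPR and TNBU stood farther apart. Standard errors and p-values in TNPR and TNBU may therefore be too small, and by how much was not tested. For edgeR and DESeq2 1.42.0, the alternatives, counts were rounded. Scripts were tested on simulated data. Intervals are 95%, and a floor of 3 counts covers counting error only. Positions, exon lengths and promoters are from GENCODE 44 on GRCh38, while the counts rest on release 26. Replicates are biological by the labels, with n = 2 in each group.

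The 9 genes and the lists by role were chosen with earlier results of these data known. All 9 are named. Of each list the 3 genes with the smallest p in PRTN vs TN are named, with genes called in the other direction, and any other list gene was named after its values were seen. Genes most like each of the 9 are those of highest Pearson's r of log2 CPM, of at least 5 CPM, protein-coding and with an established name. Some list genes and a promoter sequence are not reported here.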

Additional observations from a re-analysis of the deposited data

Results flagged for a closer look

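DNMT3B differed between butyrate given after and before TNF-α, a contrast in which order of dosing and time since TNF-α cannot be told apart. Its log2 difference in TNBU vs BUTN was -0.366 (SE 0.0641), with an adjusted p of 0.0254 by limma-voom, and both TNBU libraries, at 44 and 43 CPM, lay below both BUTN libraries, at 56.7 and 55.4. The difference was under 1.5-fold and was not a call. The same contrast for propionate, TNPR vs PRTN, gave -0.25 with an adjusted p of 0.181, and the difference between both contrasts had an adjusted p of 1.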

How the results depend on the processing

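Each comparison of the 9 genes was recomputed under 9 other settings of the test, scaling, filter, samples or pairing, with other fold thresholds and without each of the 12 libraries. Of 1674 recomputed log2 fold changes of single genes, 1590 kept their direction and their side of the call, 17 lost a call, 9 gained 1 and 58 changed sign. All 58 sign changes belonged to differences that were not called. Against TN, TET1 kept its calls under every setting, and DNMT3A and DNMT3B did so except at the stricter fold threshold. At that threshold DNMT3A lost its call in BUTN, and DNMT3B lost its calls in TNPR and TNBU. TET3 kept its calls except at that threshold and in PRTN with library size alone. The calls of UHRF2 and TDG lie near 1.5-fold and were lost in 7 and 6 recomputations. With a fold change over 2 the count called was 3 in PRTN vs TN and 2 in BUTN, TNPR and TNBU vs TN and in each SCFA group vs Ctrl. Of all 24342 tested genes, 6011 to 7005 were called over 2-fold in these contrasts. With any fold the count of the 9 was 7 in BUTN vs TN, 8 in PRTN and in BUTN vs Ctrl, 9 in TNPR and in TNBU vs Ctrl, and 1 in TNBU vs BUTN. Of all 24342 genes, 190 were called at any fold in TNBU vs BUTN and 13131 to 13714 in the others. With library size alone 3 of the 9 were called in PRTN vs TN, and 9912 of all genes.

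Without TMM factors, signs turned for UHRF1 in BUTN vs TN (0.00028) and BUTN vs Ctrl (0.00052) and for DNMT1 in TN vs Ctrl (-0.041) and PRTN vs BUTN (0.0019). DNMT1 in PRTN vs BUTN also turned without the filter (0.0028) and with only the groups compared (0.0097), as did UHRF1 there (0.0029). In the difference of time effects, TET2 turned with library size alone (-0.022), the quasi-likelihood test (-0.016), DESeq2 (-0.0262), relative log expression scaling (-0.00275) and the stricter geometric mean (-0.0045). TET1 turned with the quasi-likelihood test (-0.011) and DESeq2 (-0.022), and TDG with library size alone (-0.0059). The cause was not tested.

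With the replicate number as a block, TET2 in the difference of time effects was -0.00153 and turned sign, and no call of the 9 genes changed. Same-numbered libraries deviated from their group means with correlations of -0.0347 to 0.0658 over 15 pairs of groups, so the numbers were not used as pairs.

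Leaving out 1 library at a time gave ranges that cross 0. In TN vs Ctrl they were -0.010 to 0.039 for DNMT1, -0.0082 to 0.18 for UHRF2 and -0.13 to 0.24 for TET3. In PRTN vs BUTN they were -0.041 to 0.0099 for DNMT1, -0.054 to 0.0083 for UHRF1, -0.32 to 0.11 for TET1 and -0.10 to 0.022 for TET2. In TNPR vs TNBU they were -0.14 to 0.042 for UHRF1, -0.072 to 0.0084 for UHRF2, -0.39 to 0.0032 for DNMT3A, -0.47 to 0.29 for TET1, -0.29 to 0.20 for TET2, -0.37 to 0.26 for TET3 and -0.15 to 0.088 for TDG. In TNBU vs BUTN they were -0.15 to 0.037 for DNMT1, -0.62 to 0.14 for TET1, -0.33 to 0.17 for TET2, -0.40 to 0.23 for TET3 and -0.23 to 0.012 for TDG. In the difference of time effects they were -0.17 to 0.012 for DNMT1, -0.12 to 0.063 for UHRF1, -0.072 to 0.32 for DNMT3A, -0.36 to 0.40 for TET1, -0.25 to 0.24 for TET2, -0.51 to 0.12 for TET3 and -0.11 to 0.13 for TDG.

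With the longest transcript as length, DNMT3B per DNMT3A was 0.937 (Ctrl), 0.849 (TN), 4.26 (PRTN) and 4.03 (BUTN). A group left with 1 library was assumed to vary like the others. Depth limits TET1 most, with 23 to 115 counts per library.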
